A study of Caenorhabditis elegans with 3 samples.

Results

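The genes described here are 10 regulators of heterochromatin or members of the synthetic multivulva class B (synMuv B) group in Caenorhabditis elegans: hpl-1, hpl-2, met-2, set-25, lin-61, lin-65, lin-13, lin-15B, lin-36 and tam-1. They were named one by one and not by a cut on a measured value, but earlier results of these data were known at the time. They are 10 of 19973 nuclear protein-coding genes in the annotation. Binding of MEP-1 was measured by ChIP-seq in whole worms of mixed sex at the fourth larval stage (L4). All animals were of strain OP102, genotype unc-119(tm4063) III; wgIs102, in which wgIs102 is the transgene insertion for mep-1. The tag on the protein is eGFP per the labels, and the note on replicate 3 gives it as a C-terminal GFP-FLAG fusion. The series holds 1 group of 3 biological replicates and no second condition. Replicates 1 and 2 came from one stock source with fragments of 150 to 350 bp, and replicate 3 from another source. A whole animal mixes all tissues, so binding in few cells and weak binding in many cannot be told apart.

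Mutations in synMuv B genes give worms extra vulvae when combined with a synMuv A mutation, because the epidermis then produces a growth factor signal that is normally repressed. Many synMuv B proteins also keep germline genes silent in the soma. MEP-1, a zinc-finger protein that acts with the remodeller LET-418, is itself of this class. Methylation of lysine 9 on histone H3 (H3K9) marks silent chromatin. MET-2 and SET-25 are the methyltransferases that deposit it in embryos, LIN-65 is a cofactor of MET-2, and HPL-1 and HPL-2 are heterochromatin protein HP1 homologues. LIN-61 has malignant brain tumour repeats that bind methylated H3K9, and LIN-13 is a zinc-finger protein that recruits HPL-2 and LIN-61. LIN-15B and LIN-36 carry THAP-type domains, and TAM-1 is a RING and B-box protein.

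Of the 10 genes, 6 had at least 1 MEP-1 point source, which is where the signal of a region peaks, in the gene body or the 5 kb upstream, against 30.2% of all nuclear protein-coding genes. The list used was the authors' optimal list of 5229 regions, set by the irreproducible discovery rate (IDR). This measure rests on the agreement of ranks between replicates, but a region in the list need not rank high in every replicate. The 6 genes held 9 point sources, all 9 of them upstream and 0 in a gene body, where 6.40% of all genes had one. The sequences around 6 of the 9 are shown because they are the positions on which the counts below rest: the 4 in the members' own promoters, the stronger of those upstream of lin-13, and the one behind hpl-2. Each is 100 bp of the RefSeq genome, assembly WBcel235 (the same assembly as ce11), on the strand of the gene and centred on the point source. Capitals mark matches on either strand to any of 6 motifs, each spelled out with its counts after the sequences, and, in lin-36, also the arms of an inverted repeat.
lin-36 at −230 bp, chrIII:8021054-8021153, minus strand: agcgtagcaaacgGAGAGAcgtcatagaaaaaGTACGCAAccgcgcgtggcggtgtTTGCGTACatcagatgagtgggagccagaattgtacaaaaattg
lin-13 at −804 bp, chrIII:7710246-7710345, minus strand: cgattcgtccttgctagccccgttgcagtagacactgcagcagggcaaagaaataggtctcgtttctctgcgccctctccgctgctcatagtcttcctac
set-25 at −255 bp, chrIII:13293296-13293395, minus strand: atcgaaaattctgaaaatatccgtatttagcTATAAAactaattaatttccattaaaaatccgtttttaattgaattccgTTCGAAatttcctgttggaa
met-2 at −67 bp, chrIII:8375184-8375283, plus strand: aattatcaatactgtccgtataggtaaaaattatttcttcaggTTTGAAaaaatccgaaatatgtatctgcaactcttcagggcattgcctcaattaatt
tam-1 at −126 bp, chrV:4963179-4963278, minus strand: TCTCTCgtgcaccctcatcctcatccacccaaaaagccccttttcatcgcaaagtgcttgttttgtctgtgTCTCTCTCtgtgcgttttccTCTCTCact
hpl-2 at −3717 bp, chrIII:10759198-10759297, minus strand: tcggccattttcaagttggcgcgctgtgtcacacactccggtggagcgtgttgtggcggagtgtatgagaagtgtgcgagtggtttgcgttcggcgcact

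GAGAGA or its reverse complement TCTCTC stood within 4 of the 9 windows of 100 bp, at lin-36, in the tam-1 promoter, at the weaker lin-13 position and at the distal met-2 position. Of the 5209 nuclear point sources in the IDR list, 26.4% had this motif in a window of the same length. TTTGAA, the letters of the cell cycle element read by DREAM, lay at both met-2 positions and nowhere else among the 9, against 15.5% of all point sources. TTCGAA (5.32% of all) and TATAAA (7.18%) were each found at set-25 alone. The E2F-like letters GCGGGA (4.51% of all) and the E-box CACGTG (4.68%) were in 0 of the 9 windows. The lin-36 window held arms of 8 bases that are reverse complements of each other, GTACGCAA and TTGCGTAC, with 16 bases between them. An inverted repeat with arms at least as long was found in 8.39% of the windows of all point sources, the hpl-2 and set-25 windows shown above among them, and this feature was looked for after the sequence had been seen. GC content of the windows shown was 49% at lin-36 and in the tam-1 promoter, 55% at lin-13, 58% at hpl-2, 26% at set-25 and 31% in the met-2 promoter. The median was 49% over the 9 windows and 44% over all point sources.

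Promoters were bound at 4 of the 10 genes, met-2, set-25, lin-36 and tam-1. The promoter window ran from 500 bp before to 100 bp after an annotated transcription start site (TSS), any transcript of the gene counted, and a point source in it made the gene bound. By this rule 12.7% of all nuclear protein-coding genes were bound in the IDR list. When each replicate was taken alone, through its 5167 highest-scoring distinct regions (its top regions, as many as the distinct intervals of the IDR list), the members' count was lower. Replicate 1 had 2 of 10 (set-25 and lin-36), against 12.9% of all genes. Replicate 2 had 3 of 10 (met-2, lin-36 and tam-1), against 12.4%, and replicate 3 had 1 of 10 (lin-36), against 12.8%. The mean over replicates was 20% ± 10 (SD, n = 3), so the members' share lay above the background in 2 replicates and below it in the third. Of the 4 promoters, lin-36 was the only one called in all 3 replicates. These shares of 10 genes are descriptions, and no test was made.

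**Figure D1:**
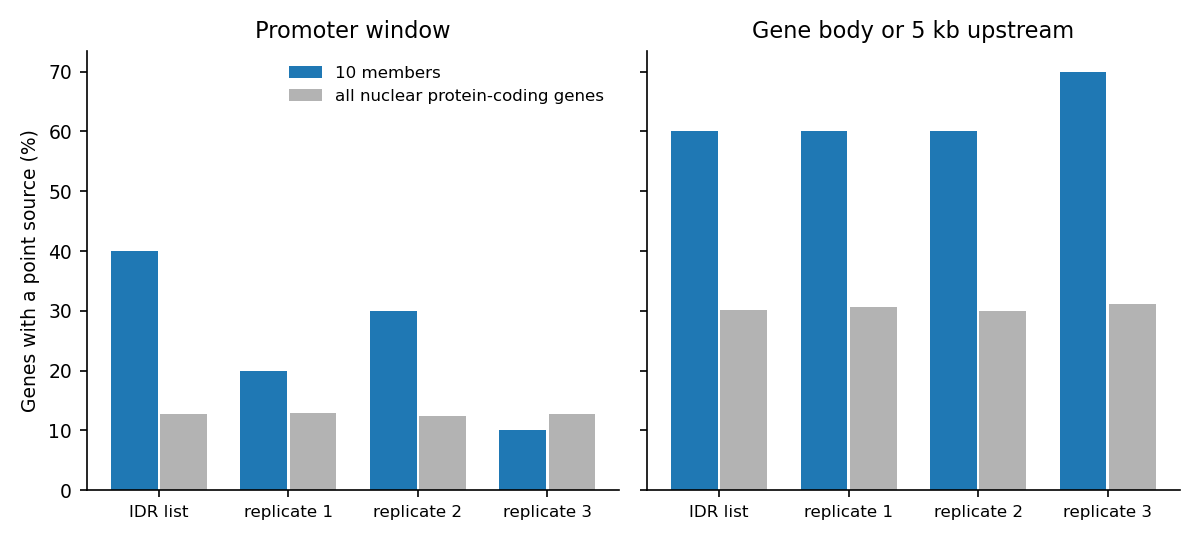
Percent of genes with a point source in the promoter window (left) and in the gene body or 5 kb upstream (right), in the IDR list and in the top regions of each replicate; blue bars are the 10 members and grey bars all 19973 nuclear protein-coding genes. In the promoter window the members range from 10% to 40%, and in the wider window from 60% to 70%.

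The lin-36 promoter held the strongest region at a member's own start site. The region spanned 8021035 to 8021149 on chromosome III, and its point source lay 230 bp upstream of the only annotated lin-36 TSS. The authors' score of a region, which ranks regions within a list, was 184.5 in the IDR list, rank 1097 of 5229. It was 72.7 in replicate 1 (rank 1207 of 30000), 75.7 in replicate 2 (rank 1154) and 30.2 in replicate 3 (rank 1705). Scores of different lists are on different scales, so the ranks are what can be set side by side, and all 3 lie well inside the top regions. The point sources of the 3 replicates, at −232, −230 and −231 bp, fell within 2 bp of each other. The region is also narrow, 115 bp against the 404 bp of most regions, and 2.29% of the IDR list is as narrow. A short non-coding RNA gene of the same strand, F44B9.11, starts at position −234 and ends at −161 from the lin-36 TSS, so the point source lies inside it and in the promoter windows of both genes. Among the 2533 bound protein-coding genes lin-36 stood at place 738 in the order of promoter scores, between W02B3.3 (184.6) and ubxn-2 (183.8).

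The other 3 bound promoters had low scores. The set-25 promoter had a score of 88.3 (chromosome III, 13293143 to 13293546, rank 3381), with the point source at −255 bp. The replicates gave it scores of 48.7, 27.8 and 10.3, at ranks 2350, 5539 and 8025, so replicate 1 alone had it among its top regions. Its point source moved between −119 bp in replicate 1, −252 bp in replicate 2 and −169 bp in replicate 3. It was place 1865 of the 2533 bound genes.

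The met-2 promoter had a score of 63.2 (chromosome III, 8375031 to 8375434, rank 5145 of 5229), with the point source at −67 bp. Its replicate scores were 6.57, 40.6 and 11.4, at ranks 24637, 3278 and 7123. Replicate 2 was high and replicates 1 and 3 fell outside the top regions, replicate 1 by a wide margin. The same-strand gene lmbr-1 ends 127 bp before the met-2 TSS, so the point source sits in a short gap between the genes.

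The tam-1 promoter had a score of 63.8 (chromosome V, 4963026 to 4963429, rank 5090), with the point source at −126 bp. Its replicate scores were 26.2, 36.3 and 8.5, at ranks 5808, 3859 and 10006, again with replicate 2 alone among the top regions. The lowest score in the whole IDR list was 62.2 and the median of the bound genes 126.9, so met-2 and tam-1 were just above the lower end of the list, at places 2506 and 2488 of 2533. The promoter regions of the H3K9 methyltransferase genes met-2 and set-25 and of tam-1 were therefore each among the top regions of 1 replicate. The other replicates had overlapping regions below that limit, at ranks from 5539 (set-25, replicate 2) to 24637 (met-2, replicate 1).

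**Figure D2:**
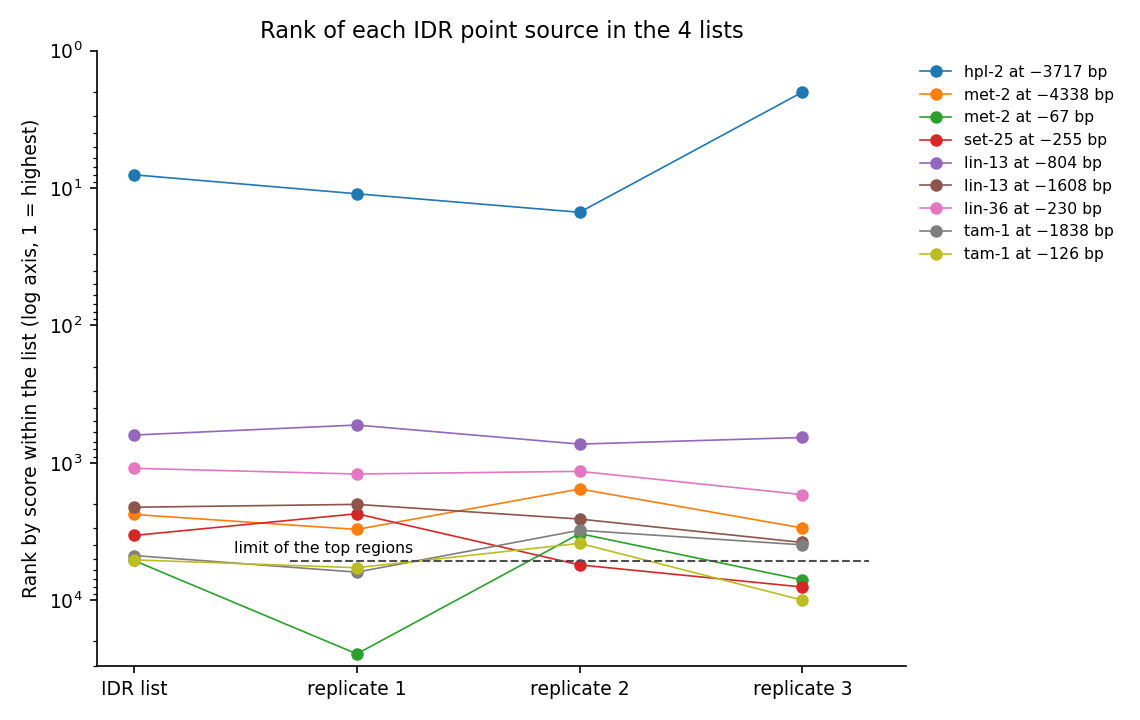
Rank by score (log axis, 1 is the highest) of each of the 9 IDR point sources near the members, in the IDR list and in the 3 replicate lists; lines only join values of the same region, and the dashed line is the limit of a replicate's top regions. The 5 regions at hpl-2, lin-13, lin-36 and the distal met-2 position lie above the dashed line in all 3 replicates, and the promoter regions of met-2, set-25 and tam-1 lie above it in 1 replicate each.

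Upstream of lin-13 there were a pair of regions beyond the promoter window, and both were found among the top regions of all 3 replicates. The nearer one (chromosome III, 7710142 to 7710393) had its point source at −804 bp and a score of 243.7, rank 628, higher than that of any member's own promoter. Its replicate scores were 107.6, 96.2 and 49.2, at ranks 531, 731 and 654, and its point sources lay at −825, −770 and −748 bp. The nearest TSS of a protein-coding gene is that of lin-13. The farther one (7711014 to 7711158) had its point source at −1608 bp and a score of 123.6, rank 2107. Its replicate scores were 53.8, 47.7 and 18.4, at ranks 2008, 2568 and 3803. It lies nearer to the divergent gene C03B8.3, whose TSS is 1210 bp away, than to lin-13. Annotated starts of worm genes are often trans-splice sites, so the distance to the start of the primary transcript may differ from these values.

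The regions at hpl-2, met-2 and tam-1 that lay outside the promoter window differed in strength. The region in the hpl-2 window (chromosome III, 10759025 to 10759486) scored 1470, rank 8 of 5229, with ranks 11, 15 and 2 in the replicates. Its point source, at −3717 bp from hpl-2, lies 60 bp from the TSS of tasp-1, which runs in the opposite direction. Between it and hpl-2 lie K01G5.10 and rnf-113, both on the strand of hpl-2, and rnf-113 ends 93 bp before the hpl-2 TSS. The hpl-2 promoter window itself held 0 point sources in the IDR list and in each of the 3 relaxed lists.

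The distal met-2 region (chromosome III, 8370760 to 8371163) had its point source at −4338 bp and a score of 113.8, rank 2378. Its ranks of 3056, 1551 and 2983 placed it among the top regions of all 3 replicates, unlike the region in the met-2 promoter. Among protein-coding genes its nearest TSS is that of lmbr-1, 1293 bp away, and the TSS of the non-coding RNA gene R05D3.13 is nearer still. The distal tam-1 region (chromosome V, 4964738 to 4965141) had its point source at −1838 bp, a score of 67.5 and rank 4734, with replicate ranks of 6255, 3099 and 3957. No other annotated gene overlaps the tam-1 gene or the 5 kb upstream of it. For 6 of the 9 point sources, that of lin-36 included, the nearest TSS of a protein-coding gene was the member's own, and 4 of the 9 ranked below place 2614, the middle of the IDR list.

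**Figure D3:**
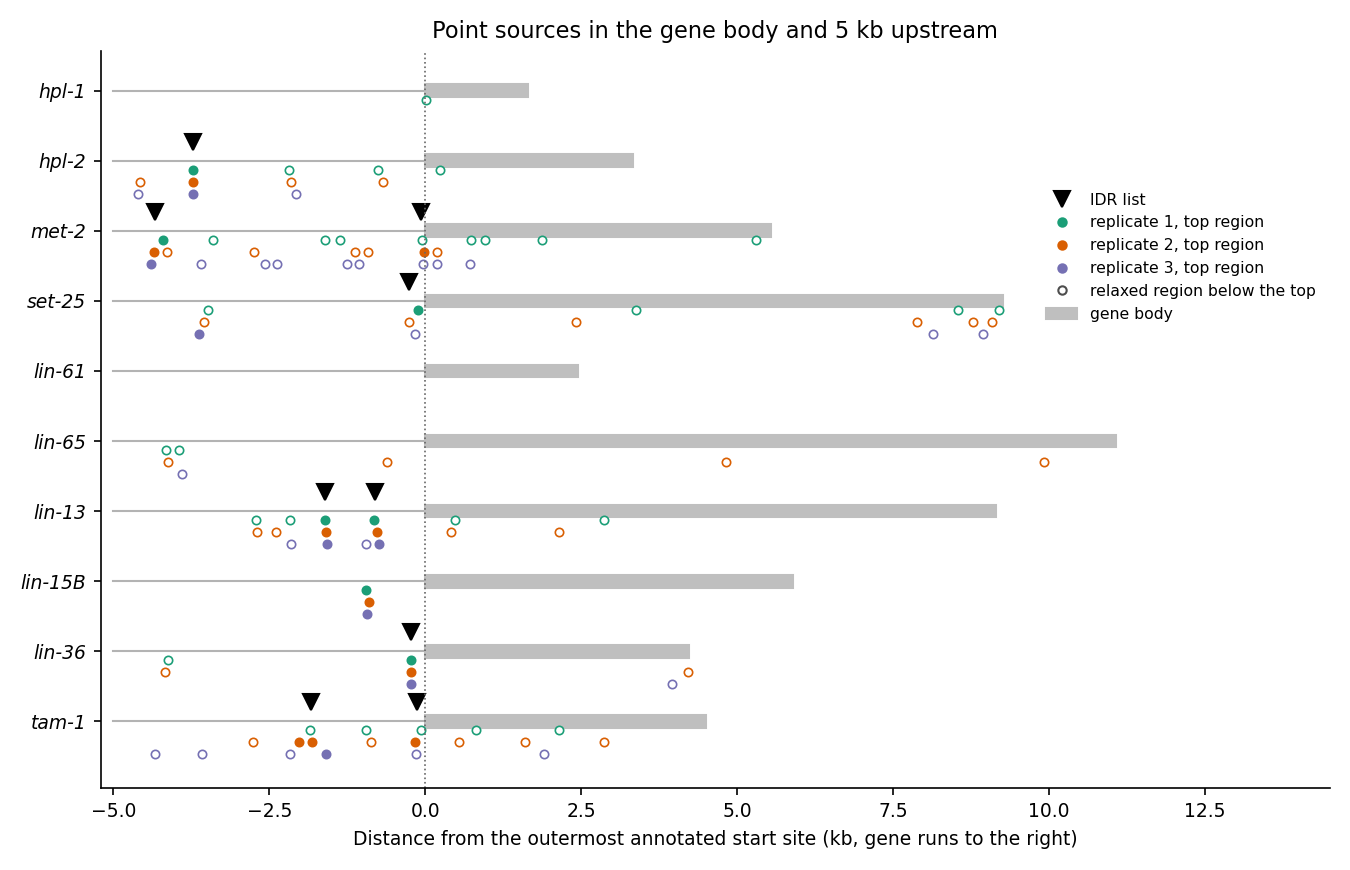
Point sources in the gene body (grey bar) and 5 kb upstream of each member, by distance in kb from the outermost annotated TSS; black triangles are the IDR list, filled circles the top regions of replicates 1, 2 and 3, and open circles the weaker regions of their relaxed lists. All 9 triangles lie to the left of the TSS, hpl-1 has 1 open circle, lin-61 has no symbol, and lin-15B has 3 filled circles and no triangle.

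Over the whole window, gene body and 5 kb upstream, 6 of 10 members had a point source in the IDR list (hpl-2, met-2, set-25, lin-13, lin-36 and tam-1), against 30.2% of all genes. In the top regions the counts were 6 of 10 in replicate 1 (background 30.6%), 6 of 10 in replicate 2 (29.9%) and 7 of 10 in replicate 3 (31.2%), a mean of 63.3% ± 5.77 (SD, n = 3). The members are long genes, with a median of 5024 bp against 2027 bp for all protein-coding genes. A longer window can hold more point sources, and the effect of length on the share was not tested. In the gene body 0 of 10 had an IDR point source, where 6.40% of all genes did. The top regions of replicates 1, 2 and 3 also gave 0 of 10, against 6.47%, 6.57% and 6.53% of all genes, counts too small to set the members apart. Upstream sequence held 1.8 point sources per 10 kb at the members and 0.745 per 10 kb over all genes. Of the 9 point sources at the members, 1 is that of the tasp-1 promoter.

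In the IDR list, members with and without a point source lay on different chromosomes. On chromosome III all 5 members had an IDR point source in the window (hpl-2, met-2, set-25, lin-13 and lin-36), and the share of all protein-coding genes of this chromosome was 41.6%. The 1 member on chromosome V, tam-1, had point sources as well, with a share of 19.8% for the chromosome. Neither of the 2 members on chromosome I (lin-61 and lin-65) nor of the 2 on chromosome X (hpl-1 and lin-15B) had any, where the shares of all genes were 39% and 34.2%. The top regions of the replicates did not divide in this way. There lin-15B had a point source in replicates 1, 2 and 3, set-25 had none in replicate 2 and tam-1 had none in replicate 1. With 1 to 5 members on a chromosome, the division was not tested.

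The 4 genes without an IDR point source differed from one another in the replicate lists, which hold 30000 regions each and reach into background. At lin-61 (chromosome I, 7248827 to 7251282) no list had a point source anywhere in the gene or the 5 kb upstream, which also take in the start of the divergent gene bub-1, 658 bp away. Such empty windows are common, since 36.1% of all protein-coding genes had no point source there in any of the 3 replicate lists. At the HP1 gene hpl-1 (chromosome X, 13245390 to 13247044) there was a single weak region, in replicate 1, at +13 bp with a score of 9.68 and rank 18026. At lin-65 (chromosome I, 1755329 to 1766400) all 3 replicates had a weak region about 4 kb upstream, between the start sites of the divergent genes mppa-1 and Y71G12B.10. Their point sources lay at −4158, −4125 and −3893 bp, and their ranks of 11272, 12513 and 11613 were far below the top regions.

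The lin-15B gene (chromosome X, 15726123 to 15732025) stood apart from these. All 3 replicates had a top region just under 1 kb upstream of its TSS, with point sources at −950, −909 and −939 bp. The scores were 41.3, 38.1 and 20.8, at ranks 3068, 3608 and 3204, which are above those of the tam-1 promoter region in each replicate. Yet neither the IDR list nor the list of pooled reads, from which the IDR list was drawn, held a region there. A promoter window of 1000 bp would have taken in this position. The partner gene lin-15A, a synMuv A gene, starts inside the end of lin-15B on the same strand and had no point source in its own promoter window in any list.

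In all, the relaxed lists of replicates 1, 2 and 3 held 35, 39 and 30 point sources in the windows of the 10 genes. Upstream sequence held 22, 26 and 24 of them, introns 5, 7 and 1, coding exons 6, 3 and 3 and untranslated exons 2, 3 and 2. Every one of the top regions among them, 7, 10 and 8, lay upstream, and the highest ranks inside a gene body were 13361, 8828 and 7679. Upstream of set-25 each replicate had a second region, at −3475, −3549 and −3634 bp with ranks 7500, 11336 and 4228. These lie close to the TSS of the divergent nuclear pore gene npp-18, and replicate 3 alone had its region among the top regions. The met-2 window held the most point sources in replicates 1 and 3, with 9 in each, and the tam-1 window in replicate 2, with 8.

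Other genes of silent chromatin were compared by the same promoter rule. Of 17 genes for H3K9 or related methylation, readers, membrane anchors and nuclear RNA interference, 6 were bound in the IDR list (35.3%, against the background of 12.7%), and the top regions of replicates 1, 2 and 3 gave 7, 7 and 5. Of the 6, 5 were called in every replicate. The strongest were the H3K36 methyltransferase gene met-1 (score 346.5, ranks 252, 469 and 195 in the replicates) and the chromodomain gene cec-5 (275.4), whose point source is nearer to the start of nol-10. They were followed by the nuclear RNA interference gene nrde-4 (196.9) and the inner nuclear membrane gene lem-2 (157.8). The lamin gene lmn-1, the anchor gene cec-4 and the MET-2 cofactor gene arle-14 were not in the IDR list by this rule, and arle-14 had weak promoter regions at ranks 7616, 9386 and 5445.

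The background of 12.7% holds for the next 3 lists too. Of the 4 synMuv A genes, 1 was bound (25%), lin-38, with a score of 157.0 and a call in all 3 replicates. Of 8 further chromatin regulator genes, most of them known as suppressors of synMuv defects, 2 were bound (25%), namely the chromodomain gene mrg-1 (376.8, nearer to spcs-2) and the acetyltransferase gene cbp-1 (75.1). In the top regions of replicates 1, 2 and 3 the count of these 8 was 4, 2 and 4, with zfp-1 and set-2 added in replicates 1 and 3. Of the 8 DREAM complex genes, 6 were bound (75%). The top regions of each replicate also gave 6, though not always the same genes, and 5 were bound in the IDR list and all 3 replicates. The highest scores were those of lin-54 (907.2) and lin-53 (597.9), each with a point source nearer to a neighbour, rpl-12 and nra-2. The DREAM genes lin-9 (452.2) and lin-35 (361.4) were the nearest protein-coding genes to their point sources. Both scored above all 4 bound members, whose highest score was 184.5. The lin-35 point source also lay in the promoter window of vps-51.

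**Figure D4:**
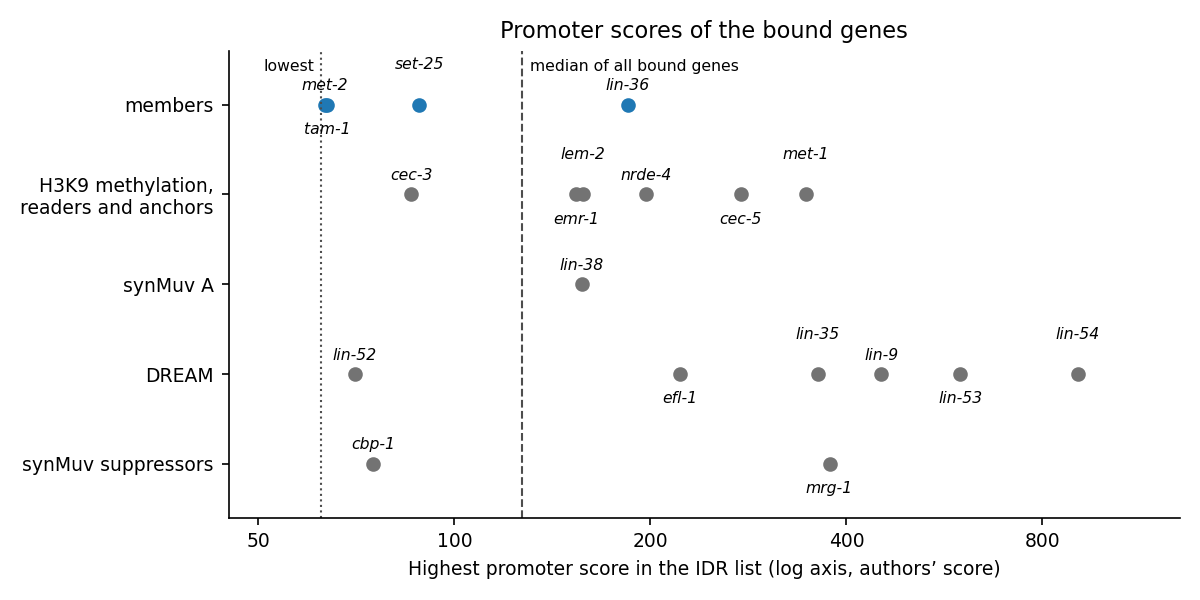
Highest promoter score in the IDR list (log axis) of each bound gene, for the 4 bound members in blue and for the bound genes of 4 related lists in grey; the dotted line is the lowest and the dashed line the median score of all 2533 bound protein-coding genes. Of the members, lin-36 alone lies to the right of the median of 126.9.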

How the data were processed

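The measurements are ChIP-seq region lists from 3 replicates. Per the labels and the deposited text files, the authors made a relaxed list of 30000 regions for each replicate and for the pooled reads with a control, and drew the optimal IDR list from them. Each region carries the authors' deposited score (narrowPeak signal value) on an unstated scale, used here to rank regions within a list. Not given in the sources used here are the aligner, the caller with its settings, and the IDR threshold. Lists on ce10 were not used. Read depth is unknown, so no interval was computed.

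Coordinates are ce11 and 1-based; genes come from Ensembl release 115 (WBcel235), and all regions fit the chromosome lengths. Point sources were assigned to windows with Python 3.11.15, tested on simulated data. Replicate regions were matched to IDR regions by an overlap of at least 1 bp. Figures used matplotlib 3.10.9. Ranks are over all regions of a list, with 20 mitochondrial regions in the IDR list.

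The 10 members and the related gene lists were chosen with earlier results of these data known. All members were named, with the 4 highest-scoring bound genes of each related list, the genes at or beside each point source and the neighbours of lin-36 in score order. The genes bub-1, mppa-1, Y71G12B.10, npp-18, lin-15A, R05D3.13, zfp-1, set-2, cec-4, lmn-1 and arle-14 were named after their values were seen. With 1 group there is no comparison of conditions and no test. Alternatives covered the promoter window, the upstream length, the TSS, region overlap, stricter lists, the pooled list and each replicate left out.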

Additional observations from a re-analysis of the deposited data

How the results depend on the processing

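The count of bound members depended on the width of the promoter window and on the strictness of the list. It was 2 (met-2 and tam-1) with a window from 200 bp upstream to 100 bp downstream, 1 (lin-36) in the 2614 highest-scoring regions, 1 (lin-36) among regions in the top of all 3 replicates, and from 1 to 1 (lin-36) when replicates 1, 2 and 3 were left out in turn, against 4. With a window of 1000 bp upstream to 200 bp downstream it was 5, lin-13 being added. Bound protein-coding genes numbered 1391 with the narrow window, 3252 with the wide window and 1546 in the 2614 highest, against 2533. They numbered 1744 among regions in the top of all 3 replicates and 1857 to 1987 without 1 replicate. The related list had 3 of 17 with the narrow window. Members with a point source in the gene or upstream numbered 0 of 10 for gene bodies alone, against 6.40% of all genes. Without 1 replicate the count was 4 to 5. The share of all genes was not computed for that setting, so the lower count is not a result about the members. Their 9 point sources became 0 in gene bodies alone, 5 in the 2614 highest, 5 in regions of all 3 replicates, and 5 to 6 without 1 replicate. Leaving out a replicate kept 67.3%, 67.9% and 72.1% of the IDR regions, those among the top regions of both others, so such sets are stricter by construction. The promoter scores of met-2, set-25 and tam-1 have no value in the 2614 highest, in regions of all 3 replicates or without any 1 replicate. No paired analysis was possible because there is 1 group. Read depth is unknown, so a position without a region may still hold signal below the lists' limits.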

Other observations

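The region upstream of lin-15B belongs to a small set. Of the 3178 top regions of replicate 1 that overlapped top regions of both other replicates, 57 (1.79%) overlapped no region of the IDR list, and 45 overlapped no region of the pooled list. Around lin-15B the pooled list had no region over 25291 bp, in which replicates 1, 2 and 3 had 1, 1 and 3 regions.

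Narrow regions had higher ranks than regions of the commonest width. Of the 5229 IDR regions, 64.2% had a width of 404 bp, with a median rank of 3464, and 30.6% were narrower, with a median rank of 1014. The 3 narrower regions near the members were the pair upstream of lin-13 and the one at lin-36, and the 5 of 404 bp were those of met-2, set-25 and tam-1; the hpl-2 region spanned 462 bp. Point sources of the 3 replicates lay within 2 to 77 bp of each other at the 3 narrower regions and within 40 to 252 bp at the 5 of 404 bp. At the hpl-2 region, the widest of the 9, they lay within 3 bp.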
